A study of Danio rerio with 5 samples.

Results

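The dividing globin-rich wells were single sorted zebrafish cells that held both red cell globin transcripts and transcripts of mitotic genes. They were chosen by the values themselves. A well was kept with at least 1000 estimated transcripts of zebrafish genes, was called globin-rich when globin genes made up at least 20% of them, and was called dividing when it also held at least 3 transcripts, summed, of kif11, CENPF, kifc1, nuf2, oip5, NCAPG and knstrn. By this rule 66 wells were dividing, of 532 globin-rich wells, 933 kept wells and 1920 wells in all. Globin genes and the 7 rule genes therefore appear as a description and were not tested between dividing and non-dividing wells.

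The cells were live mCherry+ cells sorted from dissociated runx1+23:mCherry embryos at 3 days post-fertilization, a line in which an enhancer of runx1 drives the fluorescent protein and whose sorted cells were labelled hematopoietic stem and progenitor cells (HSPCs). On each of 5 plates of 384 wells, wells 1 to 188 held cells of embryos given a standard control morpholino and wells 189 to 384 held cells of embryos given an irf8 morpholino. The groups share the transgene and stage and differ in the morpholino. irf8 encodes a transcription factor needed to form macrophages, and the comparison asked what changes in sorted blood cells when embryonic macrophages are missing. Every plate thus carried both morpholinos in fixed positions, so position on the plate and morpholino cannot be told apart, and the same 384 well names recur on every plate. All 66 dividing wells came from plates 1, 2 and 4, which are the replicates here (n = 3), and 2 further globin-rich wells came from the control side of plate 5. Plate 3 held 0 globin-rich wells among 34 control and 46 irf8 kept wells, and plate 5 kept 35 and 10. On plates 1, 2 and 4 globin-rich wells made up 55.6% to 71.8% of the kept wells of a side. The cause of this difference between plates was not tested. How many embryos were pooled for a plate is not given in the sources used here, so the spread between plates may be partly technical.

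Red cell precursors divide several times while they load globin, then leave the cell cycle and mature, and in fish the mature red cell keeps its nucleus. In mitosis a spindle of microtubules attaches to chromosomes at their kinetochores and pulls them apart. The genes used in the rule serve this machine. kif11 and kifc1 encode spindle motors, nuf2 and CENPF encode kinetochore proteins, knstrn a spindle protein, oip5 a centromere protein and NCAPG a condensin subunit that compacts chromosomes. Transcripts of such genes accumulate before and during mitosis and are scarce in cells that have left the cycle.

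The cells were more often dividing on the irf8 side of each plate. In standard control 3 of 90 globin-rich wells of plate 1 were dividing (3.33%, exact Clopper-Pearson 95% interval 0.693 to 9.43), 1 of 65 of plate 2 (1.54%, 0.0389 to 8.28) and 2 of 89 of plate 4 (2.25%, 0.273 to 7.88). In irf8 morphants the counts were 13 of 83 on plate 1 (15.7%, 8.61 to 25.3), 25 of 102 on plate 2 (24.5%, 16.5 to 34.0) and 22 of 101 on plate 4 (21.8%, 14.2 to 31.1). The 3 control and the 3 irf8 shares did not overlap. The means were 2.37% ± 0.904 and 20.7% ± 4.53 (SD, n = 3 each), a difference of 18.3 percentage points that ranged from 12.3 to 23.0 between plates. It was higher in irf8 morphants on 3 of 3 plates, which gives a two-sided exact sign-flip p of 0.25, the smallest that 3 plates allow, so the design cannot pass a threshold of 0.05. Intervals cover counting error only.

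**Figure D1:**
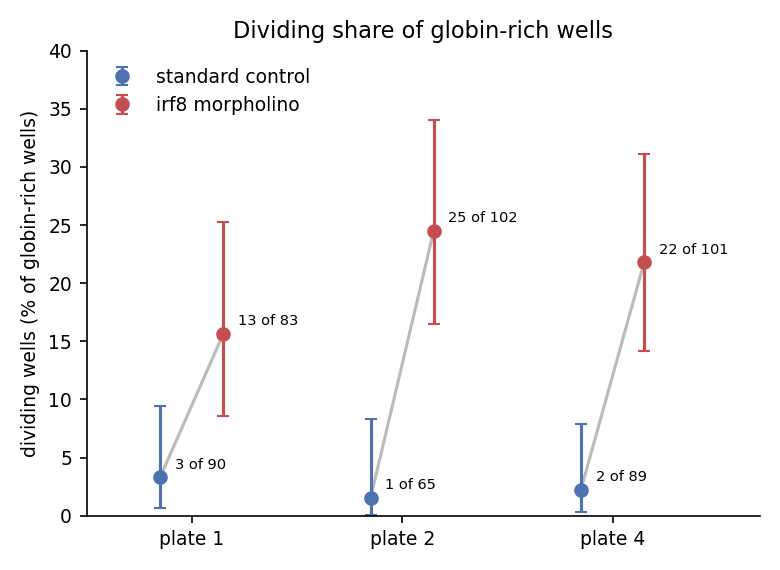
Percent of globin-rich wells that were dividing on each side of each plate, with points for the share, bars for the exact Clopper-Pearson 95% interval (counting error only) and grey lines joining both sides of a plate. All 3 irf8 shares lie between 15.7% and 24.5%, above the control shares at 1.54% to 3.33%.

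A level that needs no threshold gave the same order. Over all globin-rich wells the 7 rule genes gave 1.37, 0.428 and 0.930 transcripts per 10,000 on the control side of plates 1, 2 and 4, and 4.55, 12.1 and 5.71 on the irf8 side, a mean difference of 6.55 (exact sign-flip p = 0.25). With plate 2 left out the difference was 3.98. When the globin minimum was raised to 40%, which leaves out 5 of the 6 control dividing wells, the dividing share still differed by 16.8 percentage points. Another 103 genes of the mitosis lists, none of them in the rule, differed by 31.7 per 10,000 in the same direction (exact p = 0.25).

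Depth moved with the morpholino, and a deeper well reaches 3 transcripts more easily. The median globin-rich well held 4005, 3697 and 4418 transcripts on the control side of plates 1, 2 and 4, and 5849, 5664 and 7647 on the irf8 side. With each well thinned to 3000 UMIs (unique molecular identifiers, the molecules counted) and a minimum of 2, 3.23%, 2.27% and 1.56% of control wells passed, against 18.4%, 26.4% and 20.4% of irf8 wells. From 21 to 28 control wells and 7 to 11 irf8 wells per plate were too shallow for this and were left out. With every well thinned to 1000 UMIs and a minimum of 1, which left out none, the shares were 6.67%, 4.62% and 2.25% in control and 14.5%, 26.5% and 22.8% in irf8. At matched depth the mean differences were 19.4 and 16.7 percentage points. In non-dividing wells, mitochondrially encoded genes also moved with the morpholino, with medians of 1.65% to 1.76% of transcripts in control and 2.95% to 3.29% in irf8, and ribosomal protein genes, with 5.68% to 6.21% and 3.93% to 4.04%. The part of these shifts in the dividing share was not tested.

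Position within a side was also examined. On the irf8 side 27 of 142 globin-rich wells between well 189 and well 286 were dividing (19.0%), and 33 of 144 between well 287 and well 384 (22.9%). On the control side the counts were 5 of 116 in wells 1 to 94 (4.31%) and 1 of 130 in wells 95 to 188 (0.769%). These counts include the 2 wells of plate 5.

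Mitotic transcripts were also present in the globin-poor kept wells, which hold other cell types of the sort and also wells just under the 20% globin minimum. There 12 of 61, 20 of 52 and 10 of 41 control wells and 13 of 42, 16 of 40 and 12 of 42 irf8 wells of plates 1, 2 and 4 held at least 3 rule transcripts, a mean difference of 5.67 percentage points. The difference in globin-rich wells exceeded that in globin-poor wells by 12.6 percentage points on average, with a range from 1.05 to 21.4 (higher on 3 of 3 plates, exact p = 0.25). Both differences were added after seeing the data. The globin-poor wells with at least 3 rule transcripts included 7 of 13 irf8 and 1 of 5 control wells at 10% to 15% globin. At 15% to 20% they included 5 of 15 irf8 and 1 of 6 control wells. The contrast therefore does not set erythroid cells cleanly against other cell types.

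Most dividing wells lay well above the threshold. Among the 286 irf8 globin-rich wells, 173 held no rule UMI, 38 held 1 and 15 held 2. Just inside the threshold, 3 wells held 3, another 3 held 4, 1 held 5 and 2 held 6, while 51 held 7 or more. Among the 246 control wells, 207 held none, 31 held 1 and 2 held 2, just outside the threshold, and the 6 dividing wells comprised 1 with 5 UMIs and 5 with 7 or more. Few wells thus lay near the threshold, and their number is a description, since the threshold chose them.

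**Figure D2:**
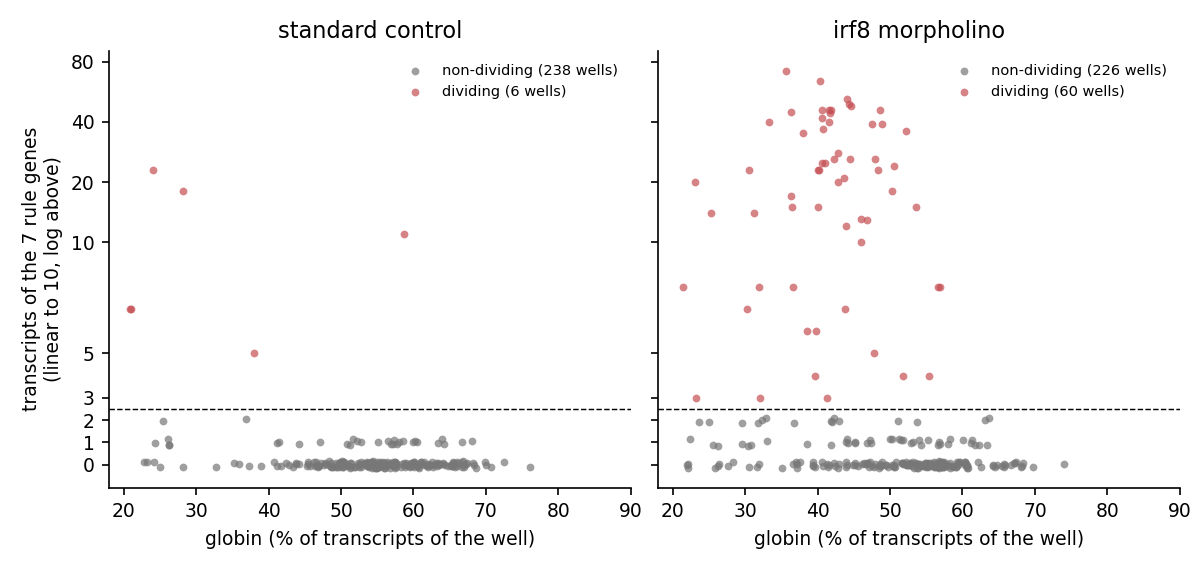
Each point is a globin-rich well of plates 1, 2 and 4, placed by the percent of its transcripts on globin genes and by its transcripts of the 7 rule genes (linear to 10, log above; points under 3 are jittered vertically), with red for dividing wells, grey for non-dividing wells and a dashed line at the threshold. In irf8 the dividing wells gather at 30% to 60% globin, and in control 3 of the 6 lie at 20% to 25%.

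Globin share varied among the dividing wells of irf8 morphants. By globin share, 15 of 36 irf8 wells at 30% to 40% globin were dividing (41.7%), 33 of 81 at 40% to 50% (40.7%), 8 of 114 at 50% to 60% (7.02%) and 0 of 36 at 60% or more. Below this range 3 of 8 wells at 20% to 25% and 1 of 11 at 25% to 30% were dividing. Outside the rule, 7 of 13 irf8 wells at 10% to 15% globin and 5 of 15 at 15% to 20% also held at least 3 rule transcripts, so the lower edge of the class is set by the 20% minimum. The globin share of the 60 irf8 dividing wells ran from 21.5% through a median of 41.5% to 57.0%. The non-dividing wells of the same plates had medians of 52.7%, 53.3% and 54.1%. Dividing wells also held more transcripts, with a median of 8875 transcripts (lowest 2593, highest 28041) and 1570 genes detected (595 to 4412) over the 60 wells, against medians of 5036 to 6988 transcripts in non-dividing wells. Relative to spike-in RNA added to each well, the median dividing well of the irf8 side held 13.7 to 14.8 transcripts per spike-in transcript, and the median non-dividing well 7.60 to 9.38. Since the rule needs 3 transcripts, it takes deep wells more easily than shallow ones.

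Each rule gene contributed in irf8. nuf2 was found in 57 of the 60 irf8 dividing wells, kif11 and kifc1 in 52 each, NCAPG in 50, CENPF in 43, knstrn in 34 and oip5 in 27. By sum, kif11 gave 348 transcripts over these wells, nuf2 318, kifc1 298, CENPF 200.1, NCAPG 153, knstrn 75.0 and oip5 55.0. In the 6 control dividing wells CENPF was found in 5, kif11, kifc1 and nuf2 in 4 each, NCAPG in 3, oip5 in 1 and knstrn in 0. No single gene therefore chose the irf8 wells.

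Globin type differed between dividing and non-dividing wells of the irf8 side. hbbe3, an embryonic beta-type globin gene, made up 12.6%, 14.2% and 9.76% of globin transcripts in irf8 dividing wells of plates 1, 2 and 4, and 5.32%, 6.56% and 5.81% in non-dividing wells. The alpha-type hbae3, the most abundant globin gene, made up 48.4%, 52.3% and 51.4% of globin in dividing and 55.7%, 58.4% and 55.9% in non-dividing wells. hbae1.3 held its share, with 11.5%, 9.37% and 8.90% in dividing and 11.3%, 9.18% and 8.80% in non-dividing wells. On the control side, with 3, 1 and 2 dividing wells, hbbe3 made up 2.63%, 0.0830% and 0.599% of globin in dividing wells. In control non-dividing wells it made up 1.42%, 1.89% and 1.43%, so it was not higher in dividing wells of plates 2 and 4. The correction for repeated UMIs is large for globin, since in 8 of 66 dividing and 14 of 466 non-dividing wells a single gene, in each case hbae3, used over 50% of the possible UMIs. Since globin chose the wells, these shares carry no test.

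The label was checked against marker genes. All 9 matched erythroid markers were present in the irf8 dividing wells, with a summed level of 194 to 234 transcripts per 10,000 per plate. The level was 181 to 207 in irf8 non-dividing wells, 24.2 to 29.1 in irf8 globin-poor wells and 12.2 to 15.6 in globin-poor control wells. The 6 matched macrophage markers were at or near 0 (0 to 0.0384 per 10,000 in irf8 dividing wells, 0 in control dividing wells). Neutrophil markers summed to 0.666 to 0.806 and lymphoid markers to 0.417 to 0.768 per 10,000. Thrombocyte markers summed to 3.34 to 3.94 with 5 of 7 present, beside 2.87 to 3.79 in irf8 non-dividing and 1.31 to 2.79 in irf8 globin-poor wells. Other tissues were not absent, since the 10 muscle markers summed to 25.01 to 68.3 per 10,000 with all present, beside 18.3 to 89.6 in irf8 non-dividing wells, and the 5 skin markers to 8.88 to 15.9, beside 11.6 to 22.4. Their part in the results was not tested. The 8 matched HSPC markers summed to 8.17 to 13.1 per 10,000 in irf8 dividing wells and 6.69 to 9.67 in irf8 non-dividing wells. MYB, a factor of blood stem cells, was found in 3 of 60 irf8 dividing wells. IRF8 itself gave 1 transcript in 1 irf8 dividing well and 0 in the 226 irf8 non-dividing wells and in the control dividing wells, so its level does not check the morpholino.

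The 6 control dividing wells matched the label less well. Their globin share was 21.1%, 24.1% and 58.6% on plate 1, 38.1% on plate 2 and 28.1% and 20.9% on plate 4. hbbe3 stood at 5.47, 2.48 and 415 transcripts per 10,000 in the 3 wells of plate 1, at 3.16 in that of plate 2 and at 26.6 and 6.62 in those of plate 4, against a range of 41.5 to 1143 with a median of 454 over the 60 irf8 wells. Only the plate 1 well with 58.6% globin lay inside the irf8 range. In non-dividing wells of plates 1, 2 and 4 hbbe3 was also lower on the control side, at 77.2, 104 and 69.4 against 247, 325 and 282 in irf8. Lower hbbe3 on the control side is therefore not particular to these 6 wells. Still, all of them but the well with 58.6% globin lay below the control non-dividing sums too, at 2.48 to 26.6. gata1a, the master transcription factor of red cells, was found in 2 of the 6 wells (at most 1.58 per 10,000) and in 52 of the 60 irf8 wells (median 4.20, highest 19.3). The 8 HSPC markers summed to 14.2 to 52.8 per 10,000 in control dividing wells, with FLI1, GATA2, MYB and gata2b at 0, whereas 7 of the 8 were present in irf8 dividing wells. hmga1a, a chromatin protein gene on that list, ran from 3.4 through a median of 23.7 to 91.1 per 10,000 in control and from 0 through 5.19 to 36.4 in irf8 wells. Cartilage and mesenchyme markers summed to 0.909 to 108 per 10,000 over the control dividing wells of a plate, with COL11A1 found in 1 of the 6 wells, and erythroid markers to 50.7 to 99.6. The 2 matched endothelial markers summed to 0.303 to 14.2 per 10,000 there, the highest in the 1 well of plate 2. They were at 0 in irf8 dividing wells and at most at 0.825 in globin-poor control wells. With 3, 1 and 2 wells per plate, the control class is better called globin-rich wells with mitotic transcripts than dividing erythroid cells.

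**Figure D3:**
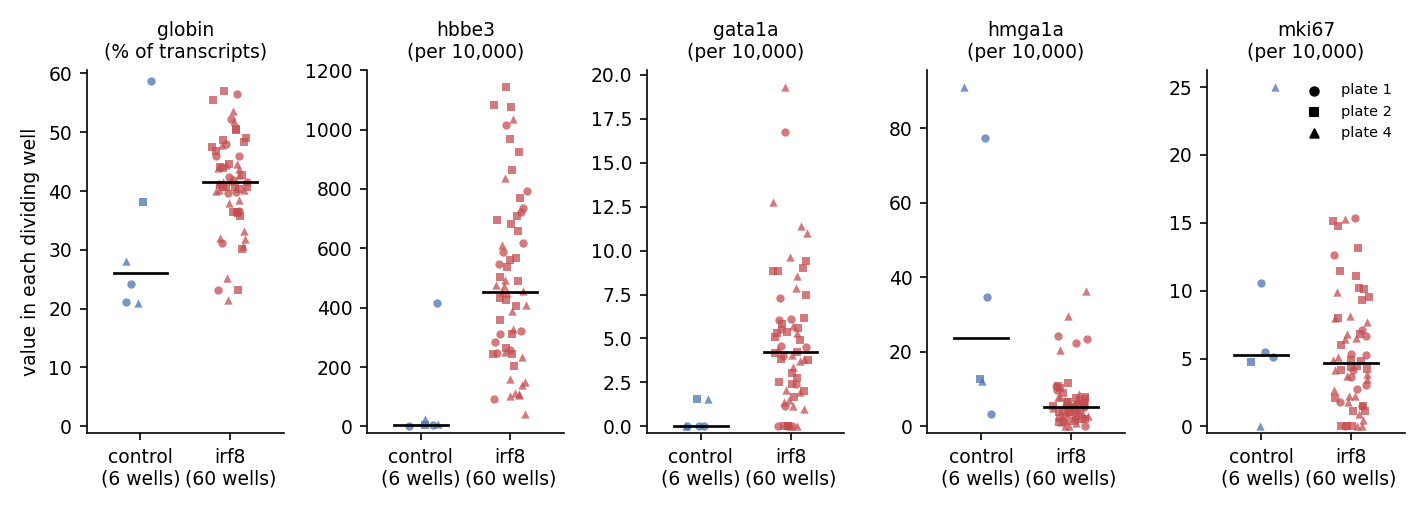
Values in each of the 66 dividing wells by morpholino, as globin percent of transcripts and as transcripts per 10,000 of hbbe3, gata1a, hmga1a and mki67, with marker shape for the plate and black lines for medians. The control wells other than 1 of plate 1 sit below the whole irf8 range for hbbe3, while mki67 medians are 5.29 in control and 4.65 in irf8. Non-dividing wells, not shown, were also lower in hbbe3 on the control side.

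To describe what else set the dividing cells apart, transcripts were summed over dividing and over non-dividing wells of each plate. The sums were compared in edgeR by quasi-likelihood, pairing the classes within a plate. At least 5 wells of each class were required on a side, which left the irf8 side of 3 plates, with 13, 25 and 22 dividing wells against 70, 77 and 79 non-dividing ones. Of 2390 genes tested, 293 were higher in dividing wells (12.3%) and 177 lower (7.41%) at an adjusted p below 0.05, with 419 and 340 at an unadjusted p below 0.05. Every one of the 293 was higher on 3 of 3 plates, and 175 of the 177 were lower on all 3. The calls were made on these same plates, so this agreement follows largely from the test and is no replication. Plate 2 held the most dividing wells, and without it 138 genes were higher and 64 lower. The dividing sums held 120035, 215560 and 260486 transcripts and the non-dividing sums 449811, 440728 and 549433.

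These changes are relative to the TMM scaling of edgeR, which sets the typical gene to no change. Scaling by library size alone, chosen after seeing the data, moved the median of all genes tested from -0.02 to 0.36 on the log2 scale, a shift of 0.38, and gave 506 genes higher and 63 lower. The share of higher calls among all calls then went from 62.3% to 88.9%. The calls in the 5 mitotic lists below were the same in number under both, whereas calls lost without TMM are named below. Leaving globin out of the library size gave 281 and 172, but TMM was still applied there, so this is no separate check of the scaling.

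**Figure D4:**
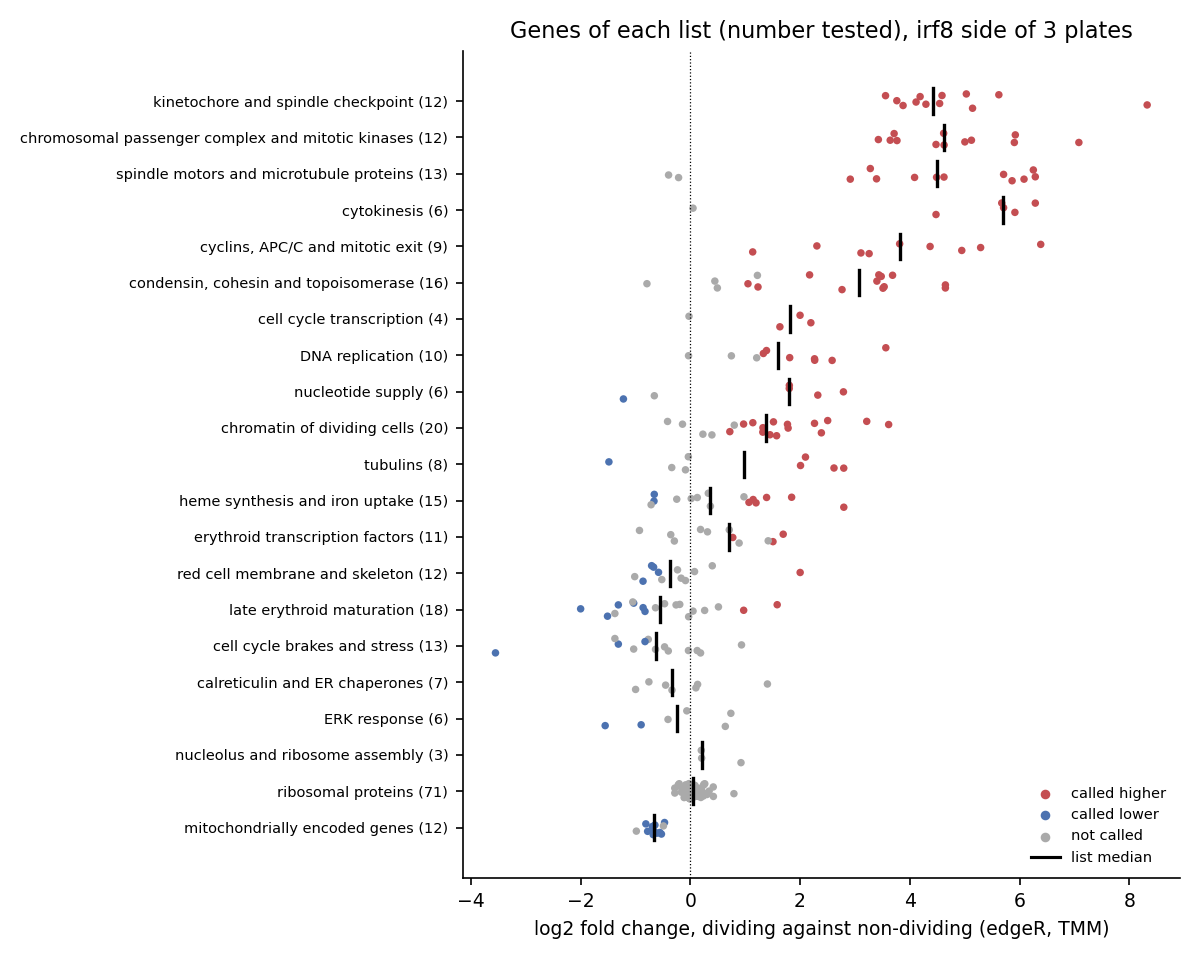
Log2 fold changes of the genes of each list in dividing against non-dividing wells of the irf8 side of 3 plates (edgeR with TMM), with the number of genes tested in brackets, red for genes called higher, blue for genes called lower, grey for genes not called and black bars for list medians. Mitotic lists have medians from 3.08 to 5.69, ribosomal protein genes have a median of 0.04 (0.42 without TMM) and mitochondrially encoded genes of -0.66 (-0.28 without TMM). The values of ndc80 and NEK2, which were at 0 in non-dividing wells, are fitted and are no bounds.

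Mitotic genes outside the rule rose together. They vary with the rule genes in any cycling population, so their counts describe what the rule selected and are no independent evidence. All 12 tested genes of the kinetochore and spindle checkpoint list were higher (median log2 fold change 4.42, beside -0.02 for all genes tested), as were all 12 of the chromosomal passenger complex and mitotic kinases (median 4.62) and all 9 of the cyclins, anaphase-promoting complex and mitotic exit (median 3.82). Of the spindle motors and microtubule proteins 11 of 13 were higher (median 4.49), and of the cytokinesis genes 5 of 6 (median 5.69). The share called over all genes was 12.3%. Setting the genes at 0 in non-dividing wells to their bound left the medians of the first 2 lists at 4.42 and 4.62. The lists above, in the order given, had 26, 17, 16, 19 and 9 matched genes, so many members were not tested. The filter on low values could admit a gene on its dividing sums alone, as for ndc80, at 0 in all non-dividing sums. The counts and medians thus cover only members that passed the filter, here and in the lists below. With at least 10 transcripts required in every sum, 89 of the 293 genes called higher were still tested.

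The genes of largest increase were mostly at or near 0 in the non-dividing globin-rich wells. In globin-poor control wells all 10 were present, from 0.0658 (NEK2) to 0.647 (NUSAP1) transcripts per 10,000. ndc80, which encodes the kinetochore subunit that grips microtubules with nuf2, stood at 1.17, 2.13 and 0.960 transcripts per 10,000 in dividing wells of plates 1, 2 and 4 and at 0 in all 3 non-dividing sums. Counting the 226 non-dividing wells together at a floor of 3 transcripts, it was at least 68.5-fold higher, and PARPBP and NEK2, also at 0 there, at least 33.0-fold and 26.6-fold higher. NEK2 encodes a centrosomal kinase. PRC1, a microtubule bundler of the spindle midzone, was 155-fold higher (95% counting interval 26.8 to 6201), ccnb3, a B-type cyclin, 134-fold (36.3 to 1121), dlgap5, a spindle assembly factor, 118-fold (31.9 to 991) and zgc:86764 215-fold (37.6 to 8586), each on 1 or 2 transcripts in non-dividing wells. The others of the 10 genes were NUSAP1, a spindle protein, with a log2 fold change of 6.08 (SE 0.37, edgeR adjusted p = 1.07e-08), cdca3, a mitotic entry factor, at 6.07 and si:ch211-266i6.3 at 6.14. NUSAP1 stood at 3.67, 5.38 and 2.80 per 10,000 in dividing and at 0.0667, 0.0454 and 0.0182 in non-dividing wells.

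Kinases and cyclins that drive mitotic entry were higher on every plate. CDK1, the kinase that starts mitosis, stood at 4.17, 7.66 and 4.34 transcripts per 10,000 in dividing and at 0.111, 0.272 and 0.127 in non-dividing wells of plates 1, 2 and 4 (log2 fold change 4.63, SE 0.26, edgeR adjusted p = 6.47e-09). Its partner cyclin CCNB1 stood at 5.34, 4.97 and 2.73 and at 0.0889, 0.159 and 0.0728 (4.95, SE 0.31, adjusted p = 1.41e-08). CDK1 and CCNB1, like the other mitotic genes here, vary with the rule genes, so these values describe what the rule selected and are no independent evidence. plk1, a kinase of spindle assembly, stood at 6.09, 8.18 and 3.50 against 0, 0.0681 and 0.127 (5.92, SE 0.43). aurka, the spindle pole kinase, was highest on plate 2, with 1.5, 4.69 and 1.11 against 0, 0.0681 and 0.0182, and AURKB and BIRC5, a kinase and a subunit of the chromosomal passenger complex, had log2 fold changes of 4.48 and 5.0. The checkpoint genes MAD2L1 and BUB3, which delay chromosome separation until all kinetochores are attached, had changes of 4.19 and 3.88, and the kinetochore motor gene cenpe 4.59. Among spindle assembly and midbody genes, TPX2 changed by 4.62, the importin gene KPNA2 by 4.09, KIF23 by 5.71 and anln by 5.68. fbxo5, an inhibitor of the anaphase-promoting complex, changed by 4.37 and cks2, a small partner of cyclin-dependent kinases, by 5.29.

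Not every dividing well held each of these genes. mki67, a proliferation marker that coats mitotic chromosomes, was found in 54 of the 60 irf8 dividing wells and in 18 of the 226 non-dividing wells, and after thinning to 3000 UMIs in 78.0% and 5.97%. CDK1 was found in 54 and 20 of these wells, and in 74.6% and 4.48% after thinning. AURKB was found in 81.7% and 4.87%, and in 49.2% and 2.99% after thinning. The median depths were 8496.5 and 5335 UMIs, and 1 dividing and 25 non-dividing wells were too shallow to thin. After thinning, the non-dividing share was at most 6.47% and the dividing share at least 39.0% for mki67, CDK1, CCNB1, AURKB and TOP2A.

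Chromosome structure and DNA replication lists were called in part. Of 16 tested genes for condensin, cohesin and topoisomerase, 12 were higher (median 3.08), beside 12.3% of all genes. mki67 stood at 5.42, 6.83 and 4.30 transcripts per 10,000 in dividing and at 0.222, 0.159 and 0.127 in non-dividing wells (log2 fold change 4.65, SE 0.27, edgeR adjusted p = 6.52e-09). The condensin genes SMC2 and NCAPH changed by 3.51 and 4.65 and TOP2A, which untangles sister DNA, by 3.4. Of 10 replication genes 7 were higher (median 1.6), beside the same 12.3%, and 4 with DESeq2. PCNA, the sliding clamp of DNA polymerase, stood at 5.34, 4.04 and 4.19 in dividing and at 1.07, 1.95 and 1.22 in non-dividing wells (1.33, SE 0.23, adjusted p = 0.00057). The clamp loader genes RFC5 and RFC2 changed by 2.58 and 2.27, and dbf4, the activator of the kinase that fires replication origins, by 3.56. MCM5, a subunit of the replicative helicase, was singled out after its values were seen, had a log2 fold change of -0.03 and was not called.

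Nucleotide supply was split. Of all genes tested, 12.3% were higher and 7.41% lower. DCK, TYMS and RRM1, enzymes that provide deoxynucleotides, changed by 2.79, 2.32 and 1.8, and SHMT1 of the folate cycle, singled out after its values were seen, by 1.8, so that 4 of 6 tested genes were higher. IMPDH2, which makes guanine nucleotides, fell, at 1.00, 1.53 and 0.960 transcripts per 10,000 in dividing against 2.34, 2.20 and 1.88 in non-dividing wells (log2 fold change -1.22, SE 0.25, edgeR adjusted p = 0.002). In the list of cell cycle transcription, lin37, MYBL2 and E2F8 changed by 2.2, 2.0 and 1.63, 3 of 4 tested, though 0 of 4 passed with DESeq2, and TFDP1 was not called (-0.02, edgeR adjusted p = 0.978, and 0.36 without TMM).

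Chromatin genes of dividing cells were higher in 15 of 20 tested cases (median 1.39), beside 12.3% of all genes, and in 9 with DESeq2. LBR, which ties chromatin to the nuclear envelope, stood at 2.67, 5.2 and 3.27 transcripts per 10,000 in dividing and 0.289, 0.431 and 0.218 in non-dividing wells (log2 fold change 3.22, SE 0.27, edgeR adjusted p = 3.91e-07). BANF1, which gathers chromosomes for the new envelope, changed by 2.5, ANP32B, a histone chaperone, by 1.52 and hmgb2b, a DNA-bending protein, by 1.77. hmga1a, singled out after its values were seen, was not called (0.23).

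Tubulin genes, the building blocks of the spindle, were called higher in 4 of 8 cases and lower in 1, beside 12.3% and 7.41% of all genes. tuba8l4, an alpha-tubulin gene, stood at 46.7, 73.9 and 51.9 transcripts per 10,000 in dividing wells of plates 1, 2 and 4 and at 6.43, 7.67 and 5.25 in non-dividing wells (log2 fold change 2.80, SE 0.13, edgeR adjusted p = 7.95e-10). tubb4b, a beta-tubulin gene, stood at 22.7, 29.2 and 15.1 and at 2.82, 3.18 and 2.33 (2.62, SE 0.15). Both were found in nearly all dividing wells, 59 and 60 of 60, and in 178 and 151 of 226 non-dividing wells. tuba1b and TUBG1, the gamma-tubulin of the spindle pole, changed by 2.1 and 2.01, while tubb5, singled out after its values were seen, was lower (-1.48), a call lost without TMM, and 3 further tubulin genes were not called. Tubulin genes are similar in sequence, so the split of reads among them may be uncertain, which was not tested.

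**Figure D5:**
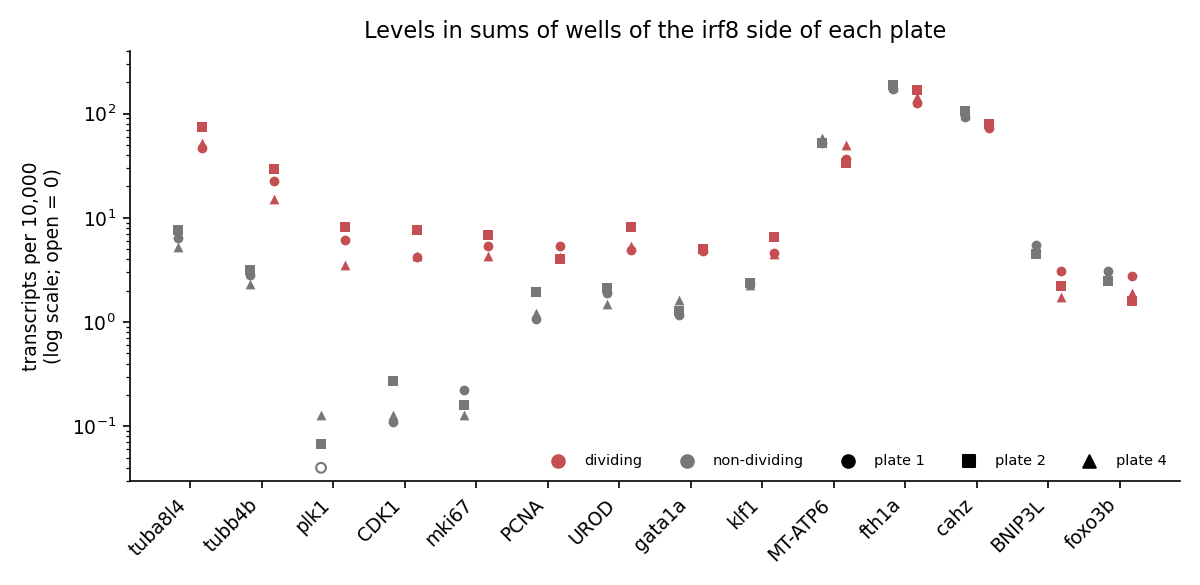
Transcripts per 10,000 (log scale) of 14 genes in the sums of dividing (red) and non-dividing (grey) wells of the irf8 side of each plate, with marker shape for the plate and open markers for 0. The mitotic and tubulin genes differ by far more than the plates do, gata1a and UROD stand above the non-dividing sums on all 3 plates, and BNIP3L stands below them.

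Among erythroid genes, some of heme synthesis and red cell transcription were higher, whereas the balance of higher and lower calls in the membrane and late maturation lists turned with the scaling. In the heme and iron list 6 of 15 tested genes were higher and 2 lower (median 0.37), and without TMM 7 and 1, beside 12.3% and 7.41% of all genes. UROD, an enzyme of heme synthesis, stood at 4.92, 8.22 and 5.42 transcripts per 10,000 in dividing against 1.89, 2.13 and 1.49 in non-dividing wells (log2 fold change 1.39, SE 0.18, edgeR adjusted p = 3.55e-05), and FECH, which inserts the iron, changed by 1.20, as a list member singled out after its values were seen. For both the dividing sums lay above the non-dividing ones on every plate. The 2 genes called lower were fth1a, the iron store ferritin, at 127, 170 and 143 against 173, 188 and 181 (-0.66, SE 0.10, adjusted p = 0.000121), and alas2, the first enzyme of the erythroid pathway, at 71.8, 66.3 and 64.5 against 79.8, 90.7 and 79.8 (-0.66), which was also singled out and lost its call without TMM.

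Of 11 erythroid transcription factor genes 3 were higher (median 0.71), beside 12.3% of all genes, with 6 higher without TMM (median 1.09) and 2 with DESeq2. gata1a stood at 4.75, 4.97 and 5.11 transcripts per 10,000 in dividing wells of plates 1, 2 and 4 and at 1.18, 1.27 and 1.62 in non-dividing wells (log2 fold change 1.51, SE 0.20, edgeR adjusted p = 3.51e-05). It was found in 86.7% of dividing and 40.7% of non-dividing wells, and in 72.9% and 29.9% after thinning to 3000 UMIs. klf1, the activator of globin and membrane genes, stood at 4.59, 6.50 and 4.46 against 2.38, 2.38 and 2.28 (0.77, SE 0.19, adjusted p = 0.00679), and the zinc finger gene znfl2a changed by 1.69. IKZF1, known from lymphoid cells, had a change of 1.42 that missed the threshold (edgeR adjusted p = 0.0631) and passed it without TMM.

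Calls among genes of the red cell membrane turned with the scaling. Of 12 tested, 4 were lower and 1, the amino acid transporter gene SLC43A1, was higher (2.0), beside 7.41% lower and 12.3% higher of all genes. Without TMM the balance turned to 1 lower and 3 higher, and the median went from -0.38 to 0.0018. cahz, the red cell carbonic anhydrase, stood at 72.3, 79.9 and 79.0 transcripts per 10,000 in dividing and 93.0, 106 and 96.5 in non-dividing wells (log2 fold change -0.71, SE 0.10, edgeR adjusted p = 5.27e-05). TMOD4, a tropomodulin of the skeleton, and the water channel AQP1 had values of -0.67 and -0.58 that passed the test, but not without TMM (-0.29 and -0.20). The band 3 anion exchanger SLC4A1 (ENSDARG00000012881), singled out after its values were seen, was not called (0.08).

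Late maturation genes were lower in 6 of 18 tested cases and higher in 2 (median -0.55), beside 7.41% and 12.3% of all genes. Without TMM 2 were lower and 4 higher (median -0.17), and DESeq2 called 3 lower and 1 higher, so the balance turned with the scaling. BNIP3L, the receptor by which maturing red cells clear mitochondria, stood at 3.08, 2.23 and 1.73 transcripts per 10,000 in dividing and 5.47, 4.49 and 5.25 in non-dividing wells for the ID with the larger counts (log2 fold change -1.51, SE 0.20, edgeR adjusted p = 4.59e-05). ULK1, a kinase that starts autophagy, changed by -2.0 (edgeR adjusted p = 0.00203). Both were lower on all plates. gpx1a, a peroxide-detoxifying enzyme, had -1.03 (adjusted p = 0.00711), a call lost without TMM. XPO7, a nuclear exporter that rises in maturing erythroblasts of mammals, was higher instead (0.97, adjusted p = 0.00528).

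Cell cycle brakes were called in part, and the calls turned with the method. Of 13 genes tested, 3 were lower and 0 higher in edgeR (6 and 1 at an unadjusted p below 0.05, and 1 and 0 with DESeq2), with a median of -0.63, beside 7.41% lower of all genes. Without TMM 1 was lower and 1 higher (median -0.25). RBL2, a retinoblastoma family repressor of resting cells, stood at 0.0833, 0.0928 and 0 transcripts per 10,000 in dividing and 0.489, 0.499 and 0.510 in non-dividing wells, a difference of 9.93-fold (95% counting interval 3.27 to 49.3) on 3 transcripts in dividing wells. foxo3b and foxo3a, FoxO factors of stress and quiescence, had log2 fold changes of -0.83 and -1.31 (edgeR adjusted p = 0.00982 and 0.0155), both lost without TMM (-0.45 and -0.93). BTG1, an antiproliferative gene, had -0.63 (adjusted p = 0.0802) and CCNG1, a p53 target, -0.40 (adjusted p = 0.0601), so neither passed. cdkn1a was found in 9 of 60 dividing and 15 of 226 non-dividing wells and was too scarce to test.

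Lists tied to the study's stress and growth signals were mostly not called. Of 7 genes for ER chaperones 0 passed in edgeR or DESeq2, and 1 had an unadjusted p below 0.05. Over all genes 12.3% were higher and 7.41% lower, and 7 genes are too few to tell 0 calls from these shares. DNAJB11 had a log2 fold change of 1.41, which passed without TMM, HYOU1 -0.997, XBP1 -0.75 and HSP90B1 -0.45. CALR was found in 9 of 60 dividing and 19 of 226 non-dividing wells and was not tested. Of 6 genes of the ERK response, JUN and FOSB were lower (-0.90 and -1.55, edgeR adjusted p = 0.0164 and 0.0233), calls that were lost without TMM, and egr1 and MYC were not called (0.74 and 0.64). JUN overlapped between classes, at 5.59, 2.37 and 4.66 transcripts per 10,000 in dividing against 6.5, 7.5 and 4.21 in non-dividing wells. The nucleolar genes NOP56, ncl and npm1a were not called (0.92, 0.2 and 0.21), though NOP56 passed without TMM.

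Ribosomal and mitochondrial gene calls turned with the scaling, and the mitochondrial share depended on what it was measured against. Ribosomal protein genes took 5.46% of transcripts in the median dividing well and 3.97% in the median non-dividing well, averaged over plates, a difference of 1.49 percentage points in the same direction on 3 of 3 plates (exact sign-flip p = 0.25, the smallest possible). As a percent of transcripts other than globin the ribosomal share differed by 1.55 percentage points (higher on 3 of 3 plates, exact p = 0.25). With TMM 0 of the 71 genes was called in edgeR or DESeq2 (2 higher at an unadjusted p below 0.05, median 0.04), and without TMM 30 were higher (median 0.42). RPL17 stood at 8.26, 7.52 and 9.08 transcripts per 10,000 in dividing and 4.69, 5.2 and 5.41 in non-dividing wells (log2 fold change 0.34 with TMM and 0.72 without), and RPS7, RPL23 and RPL22L1 likewise passed only without TMM. Of 12 mitochondrially encoded genes 10 were lower with TMM (median -0.66) and 2 without (median -0.28). Over all genes 12.3% were higher and 7.41% lower with TMM. MT-ATP6, an ATP synthase subunit, stood at 36.8, 33.4 and 49.4 in dividing and 52.7, 51.9 and 57.7 in non-dividing wells (-0.81, SE 0.11), and MT-ND1, MT-ND4 and MT-CYB, subunits of the respiratory chain, had -0.78, -0.64 and -0.60, the last 2 not called without TMM. As a percent of all transcripts the median well differed by -0.0167 percentage points (exact p = 1), and as a percent of transcripts other than globin by -1.21 (lower on 3 of 3 plates, exact p = 0.25).

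Several of the largest decreases were in genes of connective tissue, not of red cells. COL1A1, a fibrillar collagen, stood at 0.333, 0.371 and 0.653 transcripts per 10,000 in dividing and 2.34, 1.04 and 4.25 in non-dividing wells (log2 fold change -2.76, SE 0.32, edgeR adjusted p = 9.28e-06). COL1A2, COL5A1, TGFBI and tnn, all of the extracellular matrix, changed by -2.80, -2.97, -3.21 and -4.60. tnn was found in 3 of 60 dividing and 23 of 226 non-dividing wells. COL1A1 was found in 18 and 58 of these wells and COL1A2 in 10 and 37, no smaller a share of dividing than of non-dividing wells. The cartilage and mesenchyme markers as a whole moved with these sums. Their summed level was 1.25 to 6.03 per 10,000 in irf8 dividing and 5.99 to 17.0 in irf8 non-dividing wells, with all 10 matched genes present in both. Their part in the result was not tested. The remaining decreases were FOSL2, 12.0-fold lower (95% counting interval 3.18 to 101), LXN, 6.21-fold lower (1.99 to 31.2), wnk4b (-2.65) and the atrophy-linked ubiquitin ligase gene FBXO32 (-2.40), of which LXN and FBXO32 lost their calls without TMM.

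Whether the morpholino altered genes within dividing wells could hardly be asked, since the control side of no plate held 5 such wells. The test was run on sums of 3, 1 and 2 control wells against 13, 25 and 22 irf8 wells, with the plate as a block, a choice made after seeing the data. Of 625 genes tested by edgeR, 49 were higher in irf8 (7.84%) and 28 lower (4.48%). Without plate 2, whose control sum is a single well, edgeR called 0 in either direction (92 and 52 at an unadjusted p below 0.05; DESeq2, run on all plates only, called 25 and 7), without plate 1 it called 15 and 9, and without plate 4 it called 4 and 12. Globin and rule genes were not left out of this test. hbbe3 is among the 49 genes called higher, and of 5 rule genes tested 0 were called. Because globin chose the wells, hbbe3 is given here as a description. It stood at 77.0, 3.16 and 14.1 transcripts per 10,000 in control and 517, 592 and 367 in irf8 dividing wells. In non-dividing wells it was also lower in control, at 77.2, 104 and 69.4 against 247, 325 and 282 in irf8. klf17, an erythroid Krüppel-like factor, was at 0 in all 3 control sums and at 4.08, 4.46 and 2.34 in irf8, at least 6.49-fold higher at a floor of 3 transcripts over the control wells together, and mastl, fbxo5 and SNX5, also at 0 there, were at least 4.57-fold, 4.29-fold and 3.72-fold higher. Lower in irf8 were DNAJA2, CD81, STMN1 and BLOC1S6 (log2 fold changes -2.73, -2.61, -2.53 and -2.44) and si:ch211-103n10.5, which was at 0 in the control sum of plate 4 and so not lower on every plate. DNAJA2, CD81, STMN1 and BLOC1S6 rested on only 9, 30, 22 and 15 transcripts over the control wells together.

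By list, 5 of 9 tested heme genes, 3 of 6 erythroid transcription factor genes and 4 of 9 membrane genes were higher in irf8, beside 7.84% of all genes tested. The list medians were 2.11, 2.72 and 1.62 on the log2 scale, beside 0.19 for all genes. Calls were not limited to these lists, with 4 of 7 genes of the chromosomal passenger complex and mitotic kinases higher (median 2.3), 2 of 4 cyclins and mitotic exit genes (2.39), 2 of 5 tubulins (0.96) and 3 of 10 late maturation genes (1.01). All of these calls were lost in edgeR when plate 2 was left out. The low gata1a and globin of the control wells, described above, moves with these differences, and its part in them was not tested. Mitotic transcripts chose both groups, with median rule levels of 26.8 per 10,000 in irf8 and 11.1 in control dividing wells. Calls among mitotic genes are therefore no independent evidence. The control sums held 56315 transcripts together and the irf8 sums 596081. Genes at 0 in control, such as fbxo5 and mastl, entered the test through their irf8 sums alone.

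Within the 60 irf8 dividing wells, values varied with globin. Wells with more globin had a smaller share of ribosomal protein transcripts, with Spearman's rho of -0.72, -0.36 and -0.71 on plates 1, 2 and 4 over 13, 25 and 22 wells. Globin and ribosomal shares are parts of the same total, so a negative value is in part built in. The rule level per 10,000 had a rho with globin of 0.74 on plate 1, 0.0069 on plate 2 and 0.17 on plate 4. Globin and the rule genes both chose the wells, so this relation is shaped by the rule. Both also fell with the transcripts of a well. On plates 1, 2 and 4 rho was -0.36, -0.56 and -0.32 for globin and -0.19, -0.0085 and -0.39 for the rule level. Wells of a plate share a library and are not replicates, so these values are a description.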

How the data were processed

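Single-cell libraries were made by the SORT-seq protocol, with a UMI on each molecule. The deposited values are expected counts, that is, estimated transcripts per gene and well that the authors obtained from UMI counts by correcting for repeated UMIs among the limited number of possible ones. All values inverted to whole UMIs (tolerance 1e-06). The submitters' processing notes name BWA, Seurat and GRCz11, while versions and the annotation are not given in the sources used here. Kept wells held 1009 to 261288 UMIs (median 5284), and spike-in rows stayed out of all totals.

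Wells were classed by the rule given above, and their transcripts summed per plate and morpholino and rounded to whole numbers. edgeR 4.0.16 (filterByExpr, TMM, quasi-likelihood test, Benjamini-Hochberg over all genes tested, leaving out those of the rule and globin between classes) and, as an alternative, DESeq2 1.42.0 were run in R 4.3.3, and checked on simulated sums. The plate pairs both morpholinos, because both were sorted onto it. Exact sign-flip tests ran over plates. Of 23628 gene IDs, 18186 had a symbol, many in human style. The genes named are those of the rule, globin genes, the 10 of largest change in each direction with a symbol and the same direction on every plate, the 5 of largest change in each direction between morpholinos, up to 4 of smallest p from each list, and irf8, cdkn1a, btg1, calr, myb, gata1a, tfr1a and mki67 where present. Members and lists were chosen with earlier results of these data known. An interaction of morpholino with class and a test in control wells alone were not run, since the control side of no plate held 5 dividing wells. A gene that the naming rule would give is not reported here.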

Additional observations from a re-analysis of the deposited data

How the results depend on the processing

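The dividing share, the rule level and the ribosomal share kept their direction under every alternative run, with exact p-values that cannot fall under 0.25 (0.5 with 2 plates). Their differences ranged without single plates from 15.9 to 21.3 percentage points, from 3.98 to 8.23 transcripts per 10,000 and from 1.38 to 1.62 percentage points. As a percent of all transcripts, the mitochondrial share ranged from -0.0956 to 0.0447 percentage points without single plates. It reversed without plate 1 (0.0447) and without plate 2 (0.000935), so on this measure it has no settled direction. As a percent of transcripts other than globin it differed by -1.21 percentage points and was lower on 3 of 3 plates.

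Against 293 genes higher and 177 lower, DESeq2 gave 181 and 84, at least 10 transcripts in every sum 117 and 106 (of 809 tested), thinning to 1000 UMIs 41 and 37 (of 368), and a globin minimum of 10% 117 lower. Chosen after seeing the data, library size without TMM gave 506 and 63 and both sides of all 3 plates 60 and 61 (of 1431). Sums per plate over both morpholinos gave 440 higher. Single plates left out gave 138 to 320 higher and 64 to 198 lower. Without the replicate block that pairs the classes within a plate, 272 and 135 were called. For irf8 against control in dividing wells (49 and 28), DESeq2 gave 25 and 7, a minimum of 10 transcripts 6 and 4 (of 51), no filter 27 and 5, thinning 1 and 0 (6 and 2 at an unadjusted p below 0.05), leaving out plates 0 to 15 and 0 to 12, and no replicate block 65 and 25. The cause of these shifts was not tested, apart from the fewer genes tested where given.

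Of 1217 values of the 81 named genes that were called, 1123 kept their call, 94 lost it and 0 reversed. Settings in which a gene was no longer tested are not counted, so these counts say nothing of such genes. Calls kept and lost were 29 and 0 with at least 10 transcripts in every sum and 23 and 10 after thinning to 1000 UMIs. They were 28 and 14 with both sides of all 3 plates. Genes that were not called reversed in 10 cases. TFDP1 reversed to 0.36 without TMM, 0.13 and 0.17 with at least 2 and 5 rule transcripts and 0.19 with globin at least 40%, and ranged from -0.19 to 0.047 without single plates, XBP1 to 0.21 with both sides of all 3 plates, HSP90B1 to 0.16 with globin at least 10% and npm1a to -0.062 with globin at least 10%. Without single plates ncl ranged from -0.36 to 0.50 and npm1a from -0.17 to 0.52. For irf8 against control in dividing wells, the alternatives on globin, whole UMIs and the rule's minimums were not run. With 3 plates, 60 irf8 and 6 control dividing wells, scarce genes and differences within the control class were not detectable at this depth.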
